A study of Mus musculus with 11 samples.

Results

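The S100 proteins measured here are 8 genes picked by symbol: S100a1, S100a4, S100a6, S100a8, S100a9, S100a10, S100a11 and S100a13. They are 8 of the 17475 genes in the expression table, and all 8 were present. S100 proteins are small calcium-binding proteins with EF-hand motifs that mostly work as dimers. Inside cells they bind cytoskeletal proteins, annexins and enzymes, and several are released and act on receptors such as RAGE and Toll-like receptor 4. In myeloid cells S100a8 and S100a9 form calprotectin, an abundant product of neutrophils and monocytes that macrophages largely lose as they mature, while S100a4, S100a6, S100a10 and S100a11 are linked to motility and membrane traffic.

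The macrophages came from mammary tumours of 6 female PyMT mice of a strain backcrossed to B6. PyMT is a viral oncogene that drives mammary tumours. Control mice (1, 3 and 5) carried PyMT. MYC mice (2, 4 and 6) also carried S100a8-cre and Rosa26-LSL-MYC, a MYC transgene that Cre switches on in cells using the S100a8 promoter. All mice were irradiated at 7 weeks of age, rebuilt with 3 M wild-type B6 marrow cells (M for mega), and given low protein diet from 2 weeks later for 6 weeks. Cells grown from the donor marrow carry neither transgene, and with no other diet an effect of diet cannot be tested. Tumour-associated macrophages (TAMs) were sorted as F4/80+ Vcam+ and mammary tissue macrophages (MTMs) as F4/80+ Vcam- FOLR2+, after removal of SiglecF+, Ly6G+, B220+ and Ly6C+ cells. There were 3 libraries each of control TAMs, control MTMs and MYC TAMs and 2 of MYC MTMs, so 5 of the mice gave both cell types.

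Each library held about 32.9 to 43.6 M reads in genes, an estimate made from the steps between low values. Levels are the deposited log2 values, which behave as reads scaled for depth and gene length (inferred from the values), so genes can be roughly compared. The labels give RNA integrity numbers of 3.3 to 9.6 as a range for all libraries, not per library. An effect of RNA quality on levels or differences was not tested. A level near 0 means few or no reads. Differences are log2 differences ± SE from limma over all 17475 genes with Benjamini-Hochberg adjustment, a call is an adjusted p below 0.05, and folds are 2 to the power of the difference, which understates changes of low genes. The 13 measured macrophage markers had a mean level of 8.17 to 9.10 over the libraries, but single markers moved in opposite directions. Between MYC and control TAMs 5 of the 13 fell (Csf1r, Emr1, Fcgr1, C1qa and C1qc) and 3 rose (Cd68, Lyz2 and Ctss). Of all genes, 12% were lower and 3.89% higher there. Emr1, which encodes F4/80 of the gate, was at 7.50 to 8.37 in MYC TAMs, 9.40 to 9.93 in control TAMs and 9.54 to 9.96 in MTMs. Csf1r, the receptor of the macrophage growth factor, was at 7.59 to 8.09 in MYC TAMs and 9.91 to 10.74 in the other libraries, and Cd68 at 10.18 to 10.41 against 8.17 to 9.50. The FOLR2 gate held at the RNA level, with Folr2 from 0.96 to 3.62 in TAMs and from 7.67 to 8.45 in MTMs. Vcam1 was at 0.96, 1.61 and 2.82 in MYC TAMs, against 7.64 to 8.60 in control TAMs. Its median over the 11 libraries was 5.25, the level of an MTM library. Some MTM libraries, sorted as Vcam-, thus lay above every MYC TAM library. Vcam1 was also lower in MYC than in control MTMs, a call lost in 14 of 20 alternatives. The MYC TAM label is not borne out by the RNA of its gate gene, and Vcam1 RNA does not separate TAMs from MTMs over all libraries. Libraries without a read were counted only for genes whose lowest value was shared by at least 2 libraries. Among these genes, 578 had no read in the MYC TAM library of mouse 4, against 2063 to 3511 in the others.

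**Figure D1:**
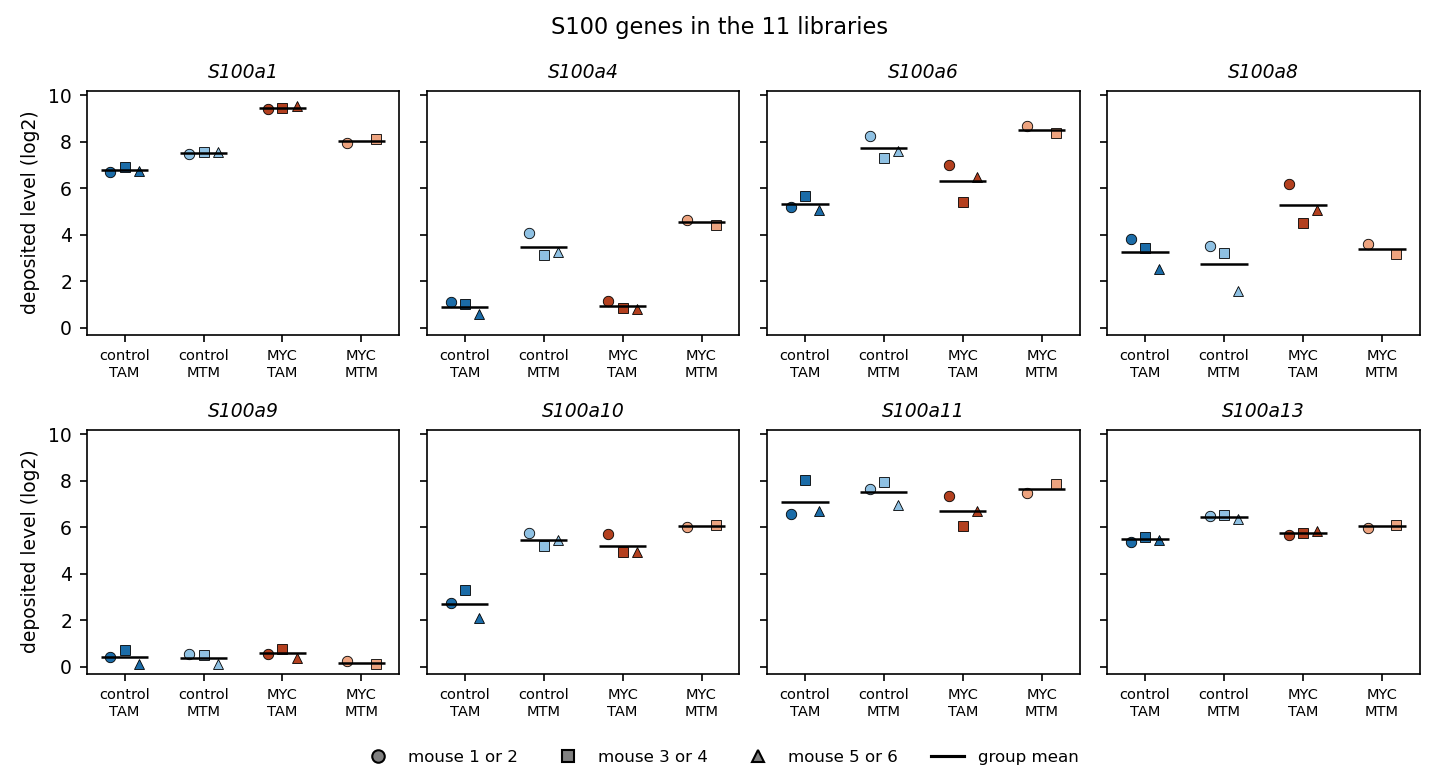
Level of each of the 8 S100 genes (y axis, deposited log2 level) in the 11 libraries by group (x axis); points are mice and lines are group means. S100a4, S100a6, S100a10 and S100a13 sit higher in the MTMs than in the TAMs of control mice, S100a1 is highest in MYC TAMs, and S100a9 stays below 0.80 in every library.

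The 8 genes covered most of the range of expression. In control TAMs the order of mean levels ran from S100a11 (7.10) and S100a1 (6.78) through S100a13 (5.47), S100a6 (5.32), S100a8 (3.26) and S100a10 (2.71) to S100a4 (0.90) and S100a9 (0.41). Within that order S100a11 and S100a1, S100a13 and S100a6, S100a8 and S100a10, and S100a4 and S100a9 had libraries that overlapped. In control MTMs S100a6 (7.71), S100a1 (7.53) and S100a11 (7.52) led and their libraries overlapped, followed by S100a13 (6.46), S100a10 (5.46), S100a4 (3.48), S100a8 (2.76) and S100a9 (0.39), where only S100a4 and S100a8 overlapped among neighbours. In MYC TAMs S100a1 (9.46) stood above all others. S100a11 (6.70), S100a6 (6.30), S100a13 (5.76), S100a8 (5.26) and S100a10 (5.18) followed with overlapping neighbours, and S100a4 (0.95) and S100a9 (0.57) were last. In MYC MTMs the order was S100a6 (8.52), S100a1 (8.03), S100a11 (7.66), S100a10 (6.06), S100a13 (6.04), S100a4 (4.53), S100a8 (3.37) and S100a9 (0.18), and only S100a10 and S100a13 overlapped.

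S100a4 and S100a6 were lower in TAMs than in MTMs in both genotypes. S100a4 (metastasin) binds non-muscle myosin and is known from motile cells, and S100a6 (calcyclin) binds annexins and other calcium-dependent partners. S100a4 was at 1.09, 1.01 and 0.61 in control TAMs (mice 1, 3 and 5) and at 4.06, 3.12 and 3.25 in control MTMs. In MYC mice its TAM libraries were at 1.16, 0.87 and 0.81 (mice 2, 4 and 6) and its MTM libraries at 4.65 and 4.41. All 6 TAM libraries were thus below all 5 MTM libraries. The difference was -2.57 ± 0.26 in controls (5.96-fold, adjusted p = 0.000935) and -3.58 ± 0.30 in MYC mice (12.0-fold, adjusted p = 0.000487). TAMs were lower within each of the 5 mice, by 2.12 to 3.54. The change of that difference with genotype was -1.01 ± 0.40 and did not pass (adjusted p = 0.370). Within TAMs the MYC and control libraries overlapped (0.05, 95% interval -0.55 to 0.64). The MYC MTM libraries were above the control MTM libraries, but the difference of 1.05 ± 0.30 did not pass (adjusted p = 0.203).

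S100a6 was at 5.21, 5.66 and 5.08 in control TAMs and at 8.23, 7.29 and 7.61 in control MTMs. Its levels were 7.00, 5.42 and 6.49 in MYC TAMs, where mice 2 and 6 lay above all control TAMs, and 8.66 and 8.37 in MYC MTMs. TAMs were lower than MTMs by -2.39 ± 0.39 in controls (5.25-fold, adjusted p = 0.0112) and by -2.21 ± 0.43 in MYC mice (4.63-fold, adjusted p = 0.0210). They were lower in 5 of 5 mice. The call in MYC mice was lost in 7 of 21 alternatives: with the mouse as a fixed block (-2.30, adjusted p = 0.0593), after quantile normalisation (0.0550), with only the groups compared (0.168), with an epithelial covariate (0.0760), with mouse 2 as the only MYC TAM library (-1.52, 0.0982), and without MYC MTM mouse 2 (0.191) or mouse 4 (0.113). The call in controls was lost when either library of mouse 1 was left out (0.0589 for its TAMs and 0.0507 for its MTMs). MYC and control TAMs differed by 0.99 ± 0.39, which did not pass (adjusted p = 0.123) but did without MYC TAM mouse 4 (1.43, adjusted p = 0.0267).

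Both genes lie in the same stretch of chromosome 3 (GRCm38). S100a4 runs from 90603771 to 90606045 and S100a6 from 90612882 to 90624181, both on the plus strand, with 6.836 kb between them. S100a5 lies between them (90608523 to 90611780) and had 0 to 22 reads per library. The upstream sequences of S100a4 and S100a6 are shown because both genes were lower in TAMs in both genotypes. The sequences are from RefSeq (GRCm38.p6), on the plus strand, and end just before the GENCODE start of the gene. The S100a4 stretch is chr3:90603520-90603769 and the S100a6 stretch chr3:90612644-90612881. Capitals mark the TATA-type motif TATAAA, which begins 31 bases before the end of the S100a4 stretch.
S100a4: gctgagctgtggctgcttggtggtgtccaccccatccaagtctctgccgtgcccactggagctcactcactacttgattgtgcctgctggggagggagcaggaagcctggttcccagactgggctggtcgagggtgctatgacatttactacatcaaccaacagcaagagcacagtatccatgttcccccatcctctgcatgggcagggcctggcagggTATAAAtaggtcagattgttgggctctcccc
S100a6: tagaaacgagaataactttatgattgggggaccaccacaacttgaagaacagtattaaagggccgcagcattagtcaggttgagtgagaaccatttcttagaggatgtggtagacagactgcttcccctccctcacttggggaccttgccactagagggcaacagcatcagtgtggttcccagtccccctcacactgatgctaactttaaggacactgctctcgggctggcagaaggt
In all, 5 motifs were searched on both strands in the 250 bases upstream of each gene: CACGTG (E-box), TTGCNNAA (C/EBP-type), GAGGAAG (PU.1-type), TGANTCA (AP-1-type) and TATAAA. Of 32851 RefSeq windows of that length, 12.4% held TATAAA, 10.6% GAGGAAG, 9.56% TTGCNNAA, 6.75% TGANTCA and 6.02% CACGTG. The S100a6 stretch held none of the 5.

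Some monocyte markers fell beside S100a4 and S100a6. Among the 17 measured, Ccr2, Ifitm6 and Fn1 fell and Itgal rose in control TAMs relative to control MTMs (all genes: 1.63% lower and 0.744% higher), and 8 fell and none rose in MYC mice (all genes: 3.82% lower and 0.664% higher). Ccr2, the receptor that brings monocytes out of marrow, was at 0.24 to 0.88 in control TAMs and 3.51 to 4.95 in control MTMs (-3.76 ± 0.34). The MYC TAM libraries held 0.01 to 0.08 of it and the MYC MTM libraries 3.24 and 3.57 (-3.36 ± 0.38). The mean level of the list was 2.32 to 2.43 in control TAMs, 3.11 to 3.59 in control MTMs, 1.52 to 1.58 in MYC TAMs and 3.15 to 3.31 in MYC MTMs. Of 18 measured neutrophil markers, Mmp8 and Padi4 fell and none rose in control TAMs relative to control MTMs. In MYC mice Padi4 fell and Mmp8 rose, beside the same shares of all genes as above. The part of monocyte or neutrophil RNA in the S100a4 and S100a6 differences was not tested. In sorted bulk cells, fewer cells of a type and less RNA per cell cannot be told apart.

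**Figure D2:**
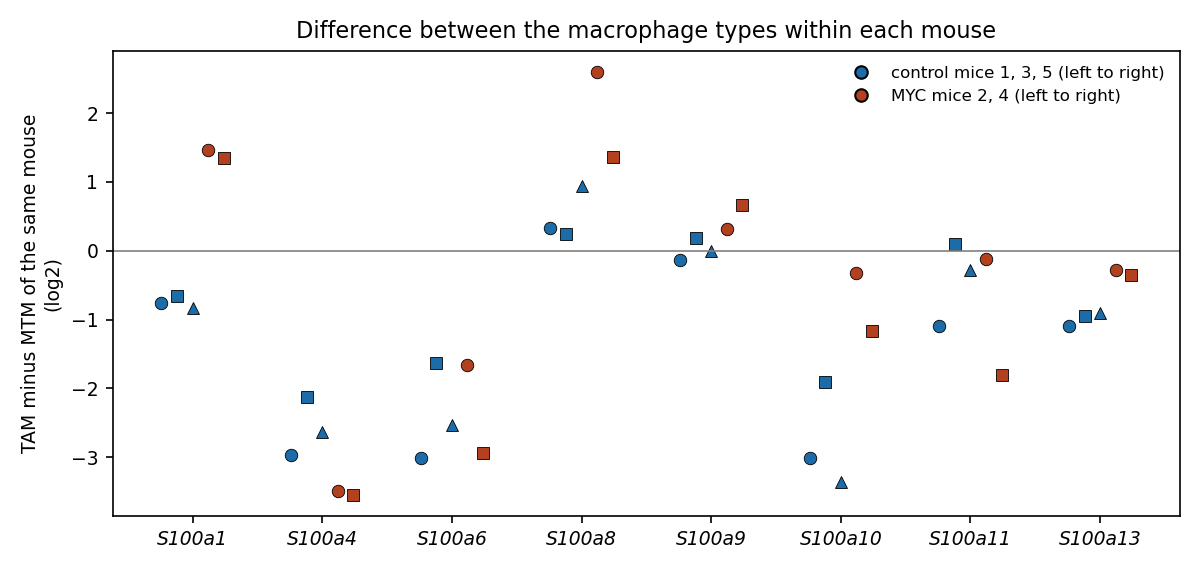
TAM minus MTM difference within each of the 5 mice that gave both cell types (y axis, log2), for the 8 genes (x axis), with control and MYC mice marked. S100a4, S100a6, S100a10 and S100a13 are below 0 in 5 of 5 mice and S100a8 is above 0 in 5 of 5, while S100a1 is below 0 in 3 control mice and above 0 in 2 MYC mice.

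S100a10 was low in control TAMs and higher in MYC TAMs, which still lay below the MYC MTMs. S100a10 (p11) forms a tetramer with annexin A2 at the cell membrane, where it binds AHNAK and serves as a plasminogen receptor. Its levels were 2.74, 3.29 and 2.10 in TAMs of control mice, 5.75, 5.19 and 5.46 in MTMs of control mice, 5.70, 4.93 and 4.92 in TAMs of MYC mice and 6.02 and 6.10 in MTMs of MYC mice. The 3 control TAM libraries were below the other 8. In control mice the TAMs were below the MTMs by -2.75 ± 0.31 (6.74-fold, adjusted p = 0.00169). MYC TAMs were above control TAMs by 2.47 ± 0.31 (5.54-fold, adjusted p = 0.000869). These comparisons share the control TAM libraries. In MYC mice TAMs were lower than MTMs by -0.88 ± 0.35, which did not pass (adjusted p = 0.238), and the change of the cell type difference with genotype, 1.88 ± 0.47, did not pass either (adjusted p = 0.113). The MTM difference between the genotypes was 0.59 ± 0.35 (adjusted p = 0.670).

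Of the 15 annexin and scaffold genes, 1 fell and none rose in control TAMs relative to control MTMs (all genes: 1.63% lower and 0.744% higher). In MYC relative to control TAMs 3 rose and 2 fell, where 3.89% of all genes were higher and 12% lower. The share that fell there was close to the background. In the other 3 comparisons (MYC cell types, MTM genotypes and the change of the cell type difference) none of the 15 passed in limma. Of all genes 4.49%, 0.618% and 1.24% passed there. An unadjusted p below 0.05 was found for 3, 4 and 3 of the 15. Ahnak, the giant scaffold protein that S100a10 and annexin A2 bind, was also lowest in control TAMs. It was at 0.25, 0.34 and 0.24 in TAMs of control mice, 2.17, 1.06 and 1.81 in MTMs of control mice, 2.43, 2.10 and 2.14 in TAMs of MYC mice and 2.51 and 2.38 in MTMs of MYC mice. Its difference was -1.41 ± 0.26 between control TAMs and MTMs (adjusted p = 0.0244, lost in 11 of 21 alternatives, among them without any control library other than the MTMs of mouse 3, or without MYC TAM mouse 4) and 1.95 ± 0.26 between MYC and control TAMs (adjusted p = 0.00122, lost in 1 of 20 alternatives, the epithelial covariate, at 0.0603). Anxa2 was at 6.60 to 7.67 in control TAMs and 8.70 to 9.37 in control MTMs, a difference of -1.85 ± 0.42 that did not pass (adjusted p = 0.0550). Its MYC TAM libraries (7.26 to 8.76) overlapped the control TAM libraries. Anxa1, a regulator of leukocyte traffic and a partner of S100a11, was at 4.97, 4.67 and 4.58 in control TAMs and at 8.38, 6.86 and 7.22 in MYC TAMs, so that MYC TAMs were higher by 2.74 ± 0.44 (6.70-fold, adjusted p = 0.00302). Anxa7 also rose. Dysf and Hltf fell by 1.05 and 1.50, but lost their calls in 9 of 19 and 7 of 20 alternatives, with adjusted p up to 0.659 and 0.116.

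Plasminogen receptor and activation genes divided between MYC and control TAMs, where 3.89% of all genes were higher and 12% lower. Of 7 measured, Plaur, which encodes the urokinase receptor, rose in MYC relative to control TAMs (9.15, 9.61 and 8.90 against 7.95, 7.53 and 8.13; 1.35 ± 0.32, adjusted p = 0.0184). It no longer passed when the TAM library of control mouse 3 (adjusted p = 0.0766) or of MYC mouse 4 (0.0752) was left out, with mouse 2 as the only MYC TAM library (0.136), or with the epithelial covariate (1.04, adjusted p = 0.394). Plau, which encodes urokinase itself, fell by 1.79 (adjusted p = 0.0490, with overlapping libraries) and the inhibitor gene Serpine2 by 1.69 (adjusted p = 0.0475). Between MYC TAMs and MYC MTMs the inhibitor gene Serpinb2 fell by 0.35 (adjusted p = 0.0490), near the floor. It was at 0.01 in each MYC TAM library and at most 0.47 in any library. These 3 calls were lost in 13 (Plau), 15 (Serpine2) and 15 (Serpinb2) of 20 alternatives, including 9 or more of the 11 that left out a library, with adjusted p up to 0.164, 0.693 and 0.394.

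**Figure D3:**
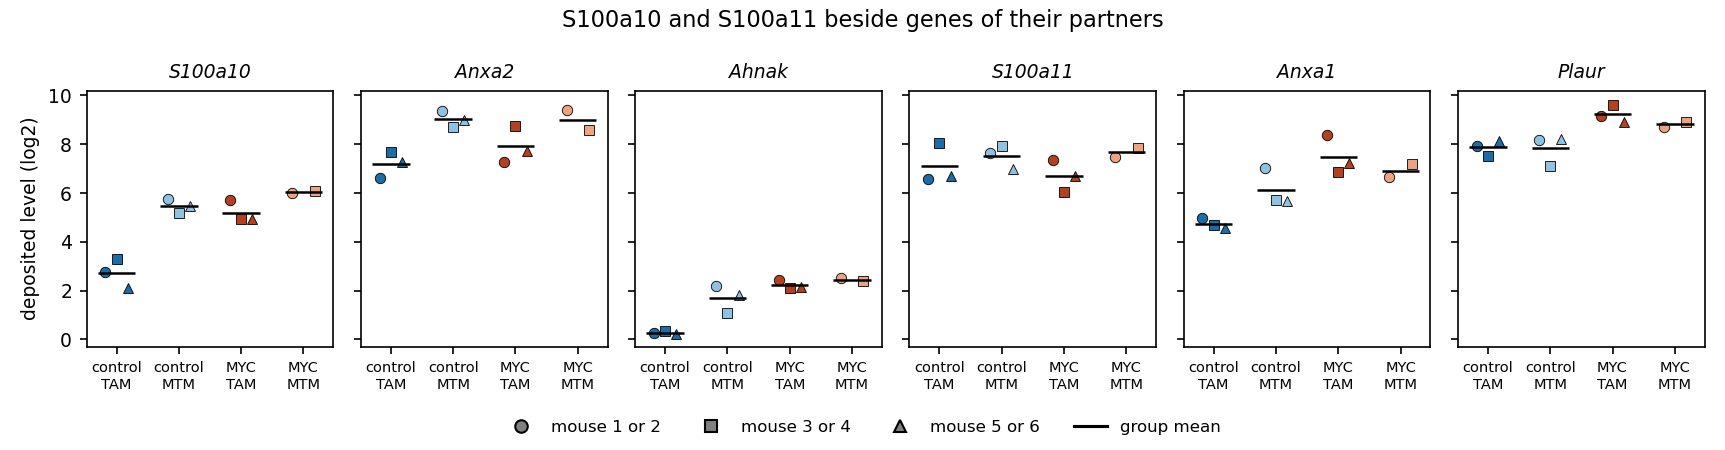
Levels (y axis, deposited log2 level) of S100a10, S100a11 and the partner genes Anxa2, Ahnak, Anxa1 and Plaur by group (x axis); points are mice and lines are group means. S100a10, Ahnak and Anxa1 are lowest in the 3 control TAM libraries, and S100a11 overlaps between control and MYC TAMs.

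S100a11 (calgizzarin), which binds annexin A1 and works in membrane repair, passed in none of the 5 comparisons. Its libraries ran from 6.04 to 8.04. The largest of the cell type and genotype differences was between MYC TAMs and MYC MTMs (-0.96 ± 0.50, adjusted p = 0.402, 95% interval -2.09 to 0.17), so differences of this size cannot be told from the spread. A processed copy, S100a11-ps on chromosome 12 (73961142 to 73961447), could share reads with it, which makes its level uncertain. S100a10 (93555080 to 93564643) and S100a11 (93520488 to 93526287) lie 28.79 kb apart on the plus strand of chromosome 3, and S100a11 is 2.825 Mb from S100a9, the nearest of the other 6.

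S100a1 was the member whose cell type difference changed sign between the genotypes. S100a1 is best known from heart and skeletal muscle, where it regulates calcium release, and S100a13 assists the export of signal proteins such as FGF1. S100a1 was at 6.70, 6.91 and 6.74 in TAMs of control mice, 7.46, 7.56 and 7.57 in MTMs of control mice, 9.40, 9.46 and 9.52 in TAMs of MYC mice and 7.94 and 8.12 in MTMs of MYC mice. No libraries overlapped between any of the 4 groups. Its mean level was above that of 98.8% of genes. MYC TAMs exceeded control TAMs by 2.68 ± 0.12 (6.41-fold, adjusted p = 3.53e-06) and MYC MTMs by 1.43 ± 0.14 (2.70-fold, adjusted p = 0.000811). The second of these lost its call with only the groups compared (adjusted p = 0.0646) and in no other of 21 alternatives. Control TAMs were below control MTMs by -0.75 ± 0.12 (1.68-fold, adjusted p = 0.0118). The change of the cell type difference with genotype was 2.18 ± 0.18 (adjusted p = 0.00150) and passed under all 20 alternatives. The call in controls was less stable: it was lost with the mouse as a fixed block (adjusted p = 0.0575), after quantile normalisation (0.0920), after centring (0.0972), without the control TAM library of mouse 1 (0.0633) or of mouse 5 (0.0569), and without the control MTM library of mouse 5 (0.0631). MYC and control MTMs differed by 0.50 ± 0.14, which did not pass (adjusted p = 0.187).

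S100a13 ranged from 5.38 to 6.54. It was at 5.38, 5.59 and 5.45 in TAMs of control mice, 6.47, 6.54 and 6.36 in MTMs of control mice, 5.68, 5.76 and 5.85 in TAMs of MYC mice and 5.96 and 6.11 in MTMs of MYC mice. The groups did not overlap. Control TAMs were below control MTMs by -0.99 ± 0.12 (1.98-fold, adjusted p = 0.00213). In MYC mice the difference was -0.27 ± 0.13 (adjusted p = 0.346), and the change with genotype was 0.71 ± 0.18 (adjusted p = 0.108). S100a1 (90511034 to 90514392, minus strand) and S100a13 (90514435 to 90524581, plus strand) stand head to head on chromosome 3 with 42 bases between them in GENCODE, but their RefSeq spans share 98 bases. Whether counting used strand is not given in the sources used here, so reads of the shared bases may not be separable. Between MYC and control TAMs S100a13 differed by 0.29 ± 0.12, with no overlap of the libraries, which did not pass (adjusted p = 0.138) but did after quantile normalisation (0.42, adjusted p = 0.0301). Whether this differs from the S100a1 difference of 2.68 was not tested.

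**Figure D4:**
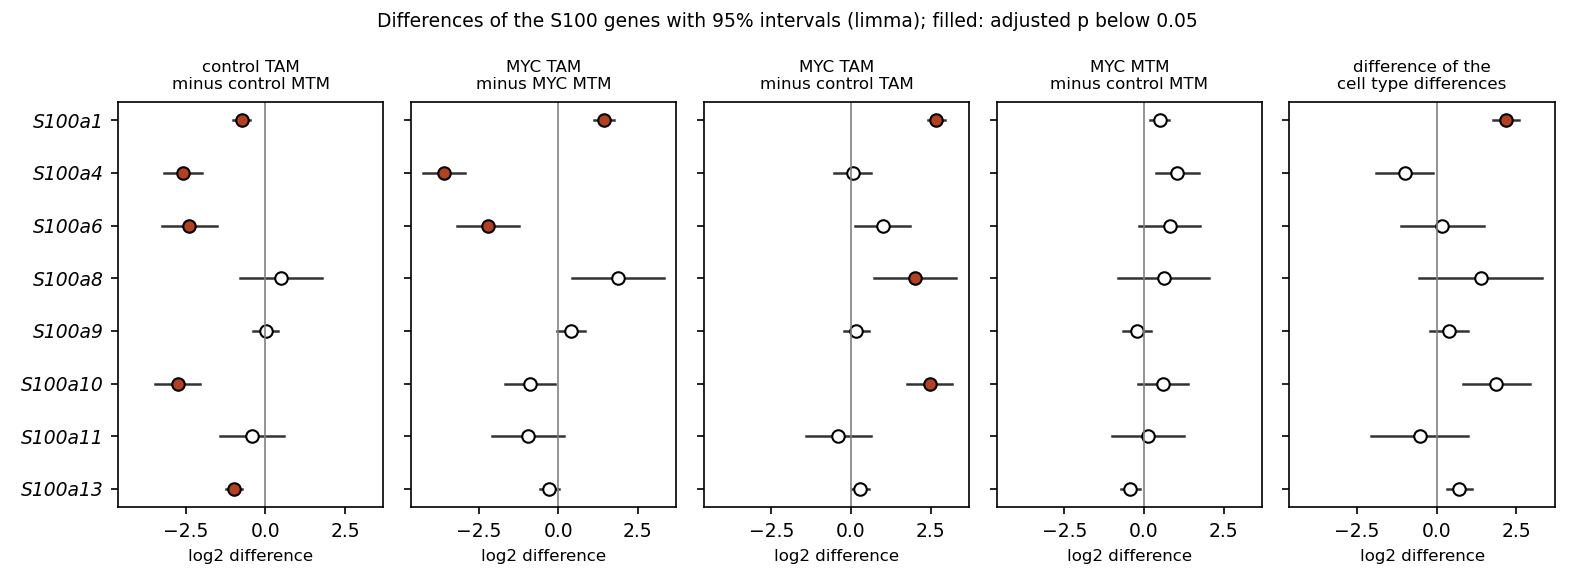
Log2 difference (x axis) with its 95% interval for each of the 8 genes (y axis) in the comparisons of cell type and genotype; filled points passed an adjusted p of 0.05. S100a1 and S100a10 have the largest MYC minus control differences in TAMs (2.68 and 2.47), and S100a4 has the largest TAM minus MTM difference in MYC mice (-3.58).

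S100a8, whose promoter drives the Cre in these mice, was highest in MYC TAMs. It was at 3.82, 3.44 and 2.52 in TAMs of control mice, 3.50, 3.20 and 1.58 in MTMs of control mice, 6.18, 4.52 and 5.07 in TAMs of MYC mice and 3.59 and 3.16 in MTMs of MYC mice. The 3 MYC TAM libraries were above the other 8. MYC TAMs exceeded control TAMs by 2.00 ± 0.57 (4.00-fold, adjusted p = 0.0430). The call was lost in 13 of 20 alternatives, with adjusted p from 0.0176 to 0.145 over all of them and values from 1.54 to 3.13. It was lost without each TAM library of either genotype in turn (0.0506 to 0.145), without control MTM mouse 3 (0.0548), and without either MYC MTM library (0.0656 and 0.0655). MYC TAMs lay above MYC MTMs by 1.88 ± 0.64, which did not pass (adjusted p = 0.158), and TAMs were above MTMs in 5 of 5 mice. In controls the cell types differed by 0.50 ± 0.57 (adjusted p = 0.940). S100a8 rested on about 38 to 1571 estimated reads per library.

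S100a9, its partner in calprotectin, was near the floor in every library. Its 11 libraries held 0 to 9 reads each and levels from 0.10 to 0.77, with 0.57, 0.77 and 0.38 in MYC TAMs. No comparison passed, and no fold is given at this depth. S100a8 and S100a9 thus had unlike levels in MYC TAMs: the first was at 4.52 to 6.18 and the second at or below 0.77. With so few S100a9 reads, whether its level changes along with that of S100a8 cannot be told. S100a8 (90668978 to 90670035, plus strand) and S100a9 (90692632 to 90695721, minus strand) lie 22.6 kb apart on chromosome 3. Their upstream sequences are shown because these partners had such unlike levels. Both are from RefSeq (GRCm38.p6), each on the strand of its gene. The S100a8 stretch is chr3:90668821-90668977 (157 bases) and the S100a9 stretch chr3:90695722-90695971 (250 bases). The S100a8 stretch ends just before the GENCODE start, so the bases from there to the RefSeq start at 90669071 are not printed. Capitals mark a PU.1-type motif on the opposite strand for S100a8 (CTTCCTC, the reverse complement of GAGGAAG) and a C/EBP-type motif for S100a9 (TTGCTTAA).
S100a8: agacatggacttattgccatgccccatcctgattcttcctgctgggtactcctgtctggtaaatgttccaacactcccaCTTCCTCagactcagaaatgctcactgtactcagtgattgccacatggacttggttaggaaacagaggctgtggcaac
S100a9: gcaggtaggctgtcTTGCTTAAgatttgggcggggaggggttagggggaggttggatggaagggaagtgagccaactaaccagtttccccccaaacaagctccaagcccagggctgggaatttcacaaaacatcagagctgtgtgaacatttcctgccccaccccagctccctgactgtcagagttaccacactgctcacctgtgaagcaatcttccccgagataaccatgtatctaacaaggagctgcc
The 250 bases upstream of the RefSeq start of S100a8 also held 1 TATAAA, in the bases not printed. Among the other members, S100a11 held 1 CACGTG and 2 TGANTCA matches and S100a1 and S100a13 none, and 7 of the 8 members had a window.

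Neutrophil and monocyte markers are given beside S100a8 because these cells make it. Of 18 measured neutrophil markers, Mmp8 and Cxcr2 rose and Ltf, Lcn2, Chi3l1 and G0s2 fell in MYC relative to control TAMs. The mean level of the list was 1.71 to 2.03 in control TAMs and 1.88 to 2.04 in control MTMs. It was 0.92 to 1.43 in MYC TAMs and 1.53 to 1.64 in MYC MTMs. The median difference of the 18 genes between MYC and control TAMs was 0.05, beside -0.02 for all genes. The lower mean thus came with no fall of the median gene. The list was not uniform in MYC TAMs (mice 2, 4 and 6 in order). Mpo was at 0.04, 0.46 and 0.05, Elane at 0.46, 0.44 and 0.14, and Cxcr2 at 0.17, 0.28 and 0.09. Csf3r, the G-CSF receptor gene, was at 5.60, 6.15 and 5.19, and at 5.54 to 5.94 in control TAMs. Cxcr1 was at 0.62, 0.28 and 2.17, against 0.05 in each control TAM library (0.98 ± 0.38, adjusted p = 0.123). Lcn2 was at 5.53, 3.60 and 2.08 and Ltf at 4.43, 3.23 and 1.11. Ngp reached 1.14 and Fcnb 0.93 in the library of mouse 4 and were at 0.04 in the libraries of mice 2 and 6. The collagenase gene Mmp8 was at 0.93, 0.80 and 0.71 in control TAMs and at 2.89, 2.87 and 2.73 in MYC TAMs (2.02 ± 0.21, adjusted p = 0.000290). Ltf, which mammary epithelium also expresses, fell by 4.47. Of 17 monocyte markers 6 fell and none rose in MYC relative to control TAMs, where 12% of all genes were lower and 3.89% higher. The part of these cells in the S100a8 difference was not tested.

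**Figure D5:**
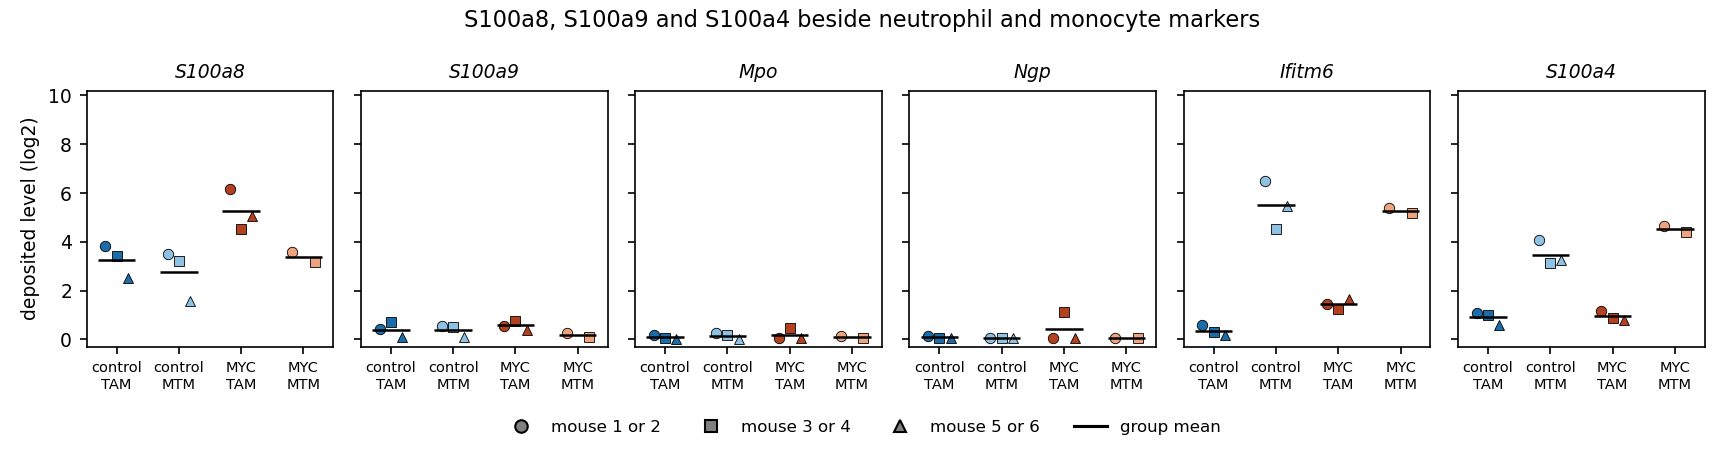
Levels (y axis, deposited log2 level) of S100a8, S100a9 the neutrophil markers Mpo and Ngp, the monocyte marker Ifitm6 and S100a4 by group (x axis); points are mice and lines are group means. S100a8 is highest in the 3 MYC TAM libraries (4.52 to 6.18), where S100a9 is at 0.38 to 0.77 and Mpo at 0.04 to 0.46; Ifitm6 and S100a4 are highest in the 5 MTM libraries.

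Markers of other cell types also differed between MYC and control TAMs, a comparison in which 12% of all genes were lower and 3.89% higher. Of 25 epithelial markers 14 fell and none rose in MYC relative to control TAMs, with a mean level of 1.16 to 3.11 against 3.81 to 4.55, and 12 of 19 T and NK cell markers fell and 1 rose (Il7r), with a mean level of 0.48 to 0.71 against 1.64 to 2.43. Of 10 dendritic cell markers 4 fell (Itgae, Siglech, Ccr7 and Dpp4), with a mean level of 0.02 to 0.39 against 0.82 to 0.91, and of 14 fibroblast markers 3 fell (Fbln1, Mmp2 and Fap), with 0.44 to 0.75 against 1.13 to 1.65. None of the dendritic cell or fibroblast markers rose. The part of these cells in the S100 differences was not tested. When the mean epithelial level entered the model as a covariate, S100a1 (2.67), S100a10 (3.31) and S100a8 (3.13) kept their direction between MYC and control TAMs, but S100a8 lost its call (adjusted p = 0.117). The epithelial levels of these TAM groups did not overlap, so the covariate values extrapolate and do not separate epithelial RNA from genotype.

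Of the S100 genes outside the 8, S100a3, S100a5, S100a7a, S100a14, S100a16, S100b and S100g were measured and none passed in any comparison in limma. Over the 35 tests of these 7 genes, 2 had an unadjusted p below 0.05. S100a16, an epithelial member, had the highest level, at 2.57 to 2.85 in control TAMs and 0.39 to 1.92 in MYC TAMs (-1.60 ± 0.59, adjusted p = 0.106). S100g was at or below 0.44 in 10 libraries and at 2.64 in 1 MYC MTM library. Among 8 receptors of S100 proteins, Alcam alone passed, and only between MYC and control TAMs. There 15.9% of all genes passed, 3.89% higher and 12% lower. A count of 1 in 8 is too small to weigh against these shares. Alcam, an adhesion molecule, was at 2.63, 2.95 and 2.59 in control TAMs and 4.68, 5.01 and 5.14 in MYC TAMs (2.22 ± 0.19, 4.66-fold, adjusted p = 8.96e-05). Ager, which encodes RAGE, was at 0.03 to 0.92 over all libraries. Tlr4 was at 1.82 to 2.37 in control TAMs and 1.15 to 2.33 in MYC TAMs.

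The counts of members past the threshold are to be read against all genes. In control mice 5 of the 8 were lower in TAMs (S100a1, S100a4, S100a6, S100a10 and S100a13) and none was higher, where 2.37% of all genes differed, 1.63% lower and 0.744% higher. In MYC mice, where 4.49% of all genes differed between the cell types, 2 were lower in TAMs (S100a4 and S100a6; background 3.82%) and S100a1 was higher (background 0.664%). Between MYC and control TAMs 3 were higher (S100a1, S100a8 and S100a10) and none lower, where 15.9% of all genes differed, 3.89% higher and 12% lower. Over all genes 24.5% of the calls in that comparison were higher, but 69.9% after centring each library on its median, which shifted the all-gene median to 0.19, and 41.6% after quantile normalisation. The 3 members stayed higher under both. Centring moved the share from 14.8% to 35.8% in the MYC cell type comparison. None of the 8 passed between MYC and control MTMs in limma, where 0.618% of genes did (0.338% higher and 0.28% lower), although 3 had an unadjusted p below 0.05 (S100a1, S100a4 and S100a13). The change of the cell type difference with genotype passed for S100a1 and no other member, against 1.24% of genes (0.24% higher and 0.996% lower). Libraries did not overlap for 5 of 8 members between control TAMs and MTMs (18.9% of genes) and 8 of 8 in MYC mice (30.4%). The 8 in MYC mice include S100a9, with 0 to 9 reads per library, and only 3 of them passed. Libraries were also apart for 4 of 8 between MYC and control TAMs (30.1%) and 5 of 8 between the MTM groups (31.2%). The median difference of the 8 was -0.87, -0.58, 0.64 and 0.55 in these comparisons, beside medians of all genes of 0.00, -0.01, -0.02 and -0.02.

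For each member that ranged over 2 log2 units or more, the genes with the most similar pattern were found by the root mean square difference of centred levels over the 11 libraries, among the 9375 genes whose mean level was at least 1. For S100a1 they were Cd200 (0.25), Kif3a (0.25) and Tmem202 (0.25). For S100a4 they were Padi4 (0.34), C6 (0.38) and Calml4 (0.43). Padi4, a gene of the neutrophil list, encodes an enzyme that converts arginine to citrulline. Its mean level was 0.77 and 3.20 in control TAMs and MTMs and 0.96 and 4.79 in the same cells of MYC mice. It was called lower in TAMs in both genotypes, but the call in controls was lost in 5 of 21 alternatives. S100a6 was nearest to Glipr2 (0.46), Raet1d (0.55) and Ecscr (0.56). S100a10 was nearest to Crip1 (0.41), Ifitm2 (0.44) and Bst1 (0.48). S100a8 had no close match, with Fth1, a ferritin chain, at 0.62, Hyi at 0.65 and Rabac1 at 0.66.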

How the data were processed

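Messenger RNA of sorted macrophages was measured in 11 libraries from 6 mice, by poly-A selection and a stranded kit per the labels. The authors deposited log2 expression values for 17475 genes. HISAT2, DESeq2 and the build mm10 (GRCm38.p5) are named in the submitters' processing notes, which give no roles. From the values, the formula behaved as the log2 of 1.00 plus a read number scaled for depth and gene length; 100% of 18557 low values were whole reads within a tolerance of 0.05. This formula was inferred and is not stated. Reads of higher genes were estimated with GENCODE exon lengths (93.1% of genes).

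A linear model with 4 group means was fitted to all genes with limma 3.58.1 in R 4.3.3, with a variance trend and no block, tested two-sided. Gene names were those of the table, with older symbols matched through RefSeq. TAM and MTM libraries with the same mouse number come from the same mouse, per the labels. Over all genes, the correlation of their deviations from their groups was 0.176, 0.211 and 0.0779 for control mice and 0.0983 and 0.0379 for MYC mice. No replicate of a group copied another (0% of values identical). No batch is given in the labels. The fit was tested on simulated data. Python 3.11.15, numpy 2.4.6, pandas 2.3.3 and matplotlib 3.10.9 served for reads, sequences and figures.

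All members were named. Members that passed or ranged over 2 log2 units got every library value. From each other list, up to 4 genes with the smallest adjusted p in a comparison were to be named, with the levels of defining markers; further names stand where a count of genes is spelled out. The members and lists were chosen with earlier results of these data known. Alternatives were a fixed and a random mouse block, a minimum mean of 1, a pseudocount of 0.1, quantile normalisation, median centring, no trend, only the groups compared, an epithelial covariate, MYC TAM mouse 2 alone, and each library left out.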

Additional observations from a re-analysis of the deposited data

Results flagged for a closer look

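The cell type difference of S100a1 was not the same in the 2 genotypes by a test of the difference itself. TAMs lay below MTMs in 3 of 3 control mice (by 0.65 to 0.83) and above them in 2 of 2 MYC mice (by 1.46 and 1.35), and the change was 2.18 ± 0.18 (limma, adjusted p = 0.00150, 95% interval 1.77 to 2.59).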

How the results depend on the processing

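The 8 genes gave 811 recomputed differences, of which 763 kept their direction and side of the threshold, 29 lost a call, 4 gained one and 15 changed sign, each of these 15 in a difference that had not passed. With the mouse as a fixed replicate block, which cannot estimate the differences between genotypes within a cell type, 255 genes passed between control TAMs and MTMs (414 without it), 476 in MYC mice (784) and 31 for the change with genotype (216). It ended the calls of S100a1 in controls and S100a6 in MYC mice and no other call of a member. With a random replicate block the change with genotype gave 325 genes. For that change the count was 327 with a minimum mean of 1, 129 after centring, 89 with the epithelial covariate and 424 with MYC TAM mouse 2 alone, and without a variance trend 2 members passed in place of 1. For MYC against control TAMs it was 5029 after centring, 1547 with only the groups compared and 1176 with the epithelial covariate, in place of 2778. With only the groups compared it was 196 in controls, 90 in MYC mice (with 1 member in place of 3) and 0 between the MTM groups. Leaving out each library in turn gave 214 to 537 genes and 3 to 5 members in controls, 163 to 1031 genes in MYC mice, 1734 to 2996 for MYC against control TAMs, 23 to 128 for the MTM groups and 21 to 301 for the change with genotype.

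The differences that changed sign were small or noisy. For S100a11 between MYC and control TAMs the value was -0.40, but 0.80 with the epithelial covariate, 0.26 with MYC TAM mouse 2 alone, and -0.73 to 0.071 over the libraries left out. Its change with genotype was 0.35 and 0.12 in those 2 alternatives, and its MTM difference ran from -0.13 to 0.35 over the libraries left out. S100a9 in controls was -0.065 with the covariate and -0.13 to 0.17 over the libraries left out, S100a8 in controls -0.087 to 0.87, S100a4 between MYC and control TAMs -0.10 to 0.14, and the change of S100a6 with genotype -0.17 to 0.62. The cause of these changes was not tested. With 2 or 3 libraries per group and 2 MYC MTM libraries, small differences between MTM groups cannot be told from the spread, and S100a9 is limited by its 0 to 9 reads per library.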
